A study of Mus musculus with 8 samples.

Results

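Hedgehog signalling was examined in mouse livers through 9 of its genes: the signal transducer Smo, its inhibitor Ptch1, the ligands Ihh and Dhh, the transcription factors Gli1, Gli2 and Gli3, and the negative regulators Sufu and Kif7. They were picked by name, because Smo was among the genes that rose in livers with deleted Hmgb1. Each was read on the 1 probe set that carried its symbol alone, or on the brighter of 2 for Kif7, and all 9 were found among the 19938 genes tested. In RefSeq on GRCm38.p6 they lie on 7 chromosomes: Smo on 6, Ptch1 and Gli3 on 13, Ihh and Gli2 on 1, Dhh on 15, Gli1 on 10, Sufu on 19 and Kif7 on 7.

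The arrays came from whole liver of male littermates 8 weeks old. Both groups carried floxed alleles of Hmgb1, the gene of an abundant chromatin protein. In 4 samples Albumin-Cre had removed it. The albumin promoter works in hepatocytes, and whether other liver cells, such as bile duct cells, also lost the gene cannot be read from whole liver. The remaining 4 samples were floxed controls. Titles mention Cre for the deleted group alone, which means that effects of Cre and of losing Hmgb1 cannot be told apart. The labels disagree with each other, giving whole liver and C57Bl/6 (backcrossed 5 times) in one field and liver stellate cells and Balb/c in others. Whether every array had its own animal is not stated, and p-values therefore reflect the spread between these arrays, which may be technical.

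Hedgehog ligands bind Ptch1, a membrane protein that otherwise holds Smo inactive. Active Smo gathers in the primary cilium and releases the Gli factors from Sufu, with Kif7 acting at the tip of the cilium, and Gli then switches on genes that include Gli1 and Ptch1 themselves. Transcript levels of Gli1 and Ptch1 are therefore widely used as a readout of the pathway. In adult liver it is best known from stellate cells, bile duct cells and progenitors, and from injury and fibrosis.

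Because Smo and Ptch1 mark the input and a common output of the pathway, the sequences around their start sites are shown, from 250 bases before to 50 bases after the start, 5′ to 3′. They come from RefSeq on build GRCm38.p6, on the plus strand at chr6:29735247-29735546 for Smo and on the minus strand at chr13:63565686-63565985 for Ptch1. The window of Smo sits at the outer start of the gene, whereas that of Ptch1 belongs to a start 7725 bases inside the annotated gene. Capitals mark the GC box GGGCGG, a motif bound by factors of the Sp1 family, on either strand.
Smo: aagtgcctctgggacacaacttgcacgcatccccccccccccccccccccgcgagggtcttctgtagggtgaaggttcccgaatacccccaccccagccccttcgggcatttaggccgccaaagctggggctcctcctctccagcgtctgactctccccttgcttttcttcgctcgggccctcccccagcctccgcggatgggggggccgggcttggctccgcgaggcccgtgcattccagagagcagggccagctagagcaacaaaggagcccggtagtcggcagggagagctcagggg
Ptch1: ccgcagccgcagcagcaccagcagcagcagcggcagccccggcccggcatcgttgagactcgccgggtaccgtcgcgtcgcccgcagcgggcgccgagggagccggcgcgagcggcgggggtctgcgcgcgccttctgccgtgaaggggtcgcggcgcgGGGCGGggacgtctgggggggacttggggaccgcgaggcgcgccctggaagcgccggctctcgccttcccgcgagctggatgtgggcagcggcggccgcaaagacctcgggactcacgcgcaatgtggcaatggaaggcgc

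The window of Ptch1 held 1 GC box and 47 CG dinucleotides, and that of Smo held 0 and 17. A GC box was present in 35.7% of the 32851 promoters listed, whose median number of CG dinucleotides was 7. Sequences were found for 8 of the 9 genes, all but Gli1, and 7 of these 8 held at least 1 GC box. Their share of G and C ran from 56.3% (Sufu) to 76.3% (Ptch1), against a median of 52.7% over all promoters. The 9-letter Gli motif GACCACCCA, searched on both strands, was in 0 of the 8 windows and in 0.253% of all promoters. This says only that these letters were not in these windows.

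The arrays were first checked on the deleted gene and the tissue. Hmgb1 fell by 0.91 on the log2 scale (SE 0.14, limma adjusted p = 0.0216), with the 4 deleted arrays between 4.20 and 4.91 and the controls between 5.35 and 5.78. The hepatocyte transcript Alb read 13.26 to 14.03 in log2 intensity, lowest on deleted 4. Stellate markers were present beside it, Lrat at a mean of 8.66 and Des at 6.84. Array medians ran from 6.08 to 6.22, and floxed control 1 stood apart on the first principal component, at −26.6 against −11.4 to 11.7 for the other 7 arrays. As a reference of dimness, 95% of the 1027 olfactory receptor genes had means under 6.04. Of the 9 Hedgehog genes 8 lay above it, Gli2 only narrowly at 6.16, and Gli3 lay below, as did the probe set of Hmgb1. Probe sets differ in brightness for reasons such as probe sequence, so levels were not compared between genes.

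Smo, the membrane protein that carries the signal into the cell, was higher in the deleted livers. Its log2 intensities were 7.87, 7.88, 8.31 and 8.02 on deleted arrays 1 to 4, and 7.26, 7.57, 7.48 and 7.54 on control arrays 1 to 4. All 4 deleted arrays lay above all 4 controls, with deleted 3 highest and control 1 lowest. The means were 8.02 ± 0.21 (SD, n = 4) and 7.46 ± 0.14 (SD, n = 4), a difference of 0.56 on the log2 scale or 1.47-fold (SE 0.11, 95% interval 0.32 to 0.79). This difference is the value for which the pathway was looked at, so it is given as a description. Smo was past the threshold (limma, adjusted p under 0.05), making 1 of the 9 genes, and nothing is read from that count beside the 0.692% of all genes tested that were past it (0.296% higher and 0.396% lower). Past the threshold were 138 genes, 59 higher and 79 lower, a split that became 153 and 111 after quantile normalization again and 33 and 28 with arrays centred on their medians. In whole liver, a change in the number of cells of a type and a change of RNA per cell cannot be told apart.

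The call of Smo was held in 8 of the 18 other settings tried and lost in 10, while its difference stayed between 0.46 and 0.61. Of the 8 fits that each left out 1 array, only the one without control 1 kept the call. Leaving out both control 1 and deleted 4 gave 0.49 and no call.

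Ptch1, which restrains Smo and is itself switched on by Gli, did not differ detectably. Deleted arrays 1 to 4 had log2 intensities of 8.46, 8.65, 8.71 and 8.69, and controls 8.43, 8.79, 8.69 and 8.73. The groups overlapped, with array 1 lowest in each. The difference was −0.0325 (SE 0.089), and its 95% interval of −0.23 to 0.16 lay within 1.5-fold. A rise of Ptch1 as large as that of Smo lies outside this interval. The value was −0.11 without control 1, −0.13 without control 1 and deleted 4, 0.023 without deleted 1 and 0.011 without control 2.

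Gli1, the factor whose transcription depends most on the pathway, had log2 intensities of 7.18, 7.09, 7.01 and 6.79 on the deleted and 7.32, 7.13, 6.95 and 7.04 on the control arrays. Deleted 4 was lowest and control 1 highest of all 8. The difference was −0.0925 (SE 0.10, 95% interval −0.31 to 0.13), so the data leave room for a small change in either direction. It turned to 0.053 when control 1 and deleted 4 were left out together.

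Gli2, the main activator, and Gli3, mainly a repressor, showed differences near 0. Gli2 read 6.42, 6.17, 6.34 and 5.84 on deleted and 6.16, 6.27, 5.99 and 6.11 on control arrays. Its deleted arrays spread more widely (SD 0.26, n = 4) than its controls (SD 0.12, n = 4), and the difference was 0.06 (95% interval −0.20 to 0.32). Gli3 read 5.60, 5.85, 5.63 and 5.62 on deleted and 5.88, 5.52, 5.53 and 5.73 on control arrays. With a difference of 0.01 (95% interval −0.20 to 0.22) its groups overlapped, and being under the reference of dimness it may carry little signal. Without deleted 1 Gli2 became −0.016, and without deleted 2, control 2 or control 3 Gli3 became −0.048, −0.038 and −0.035.

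**Figure D1:**
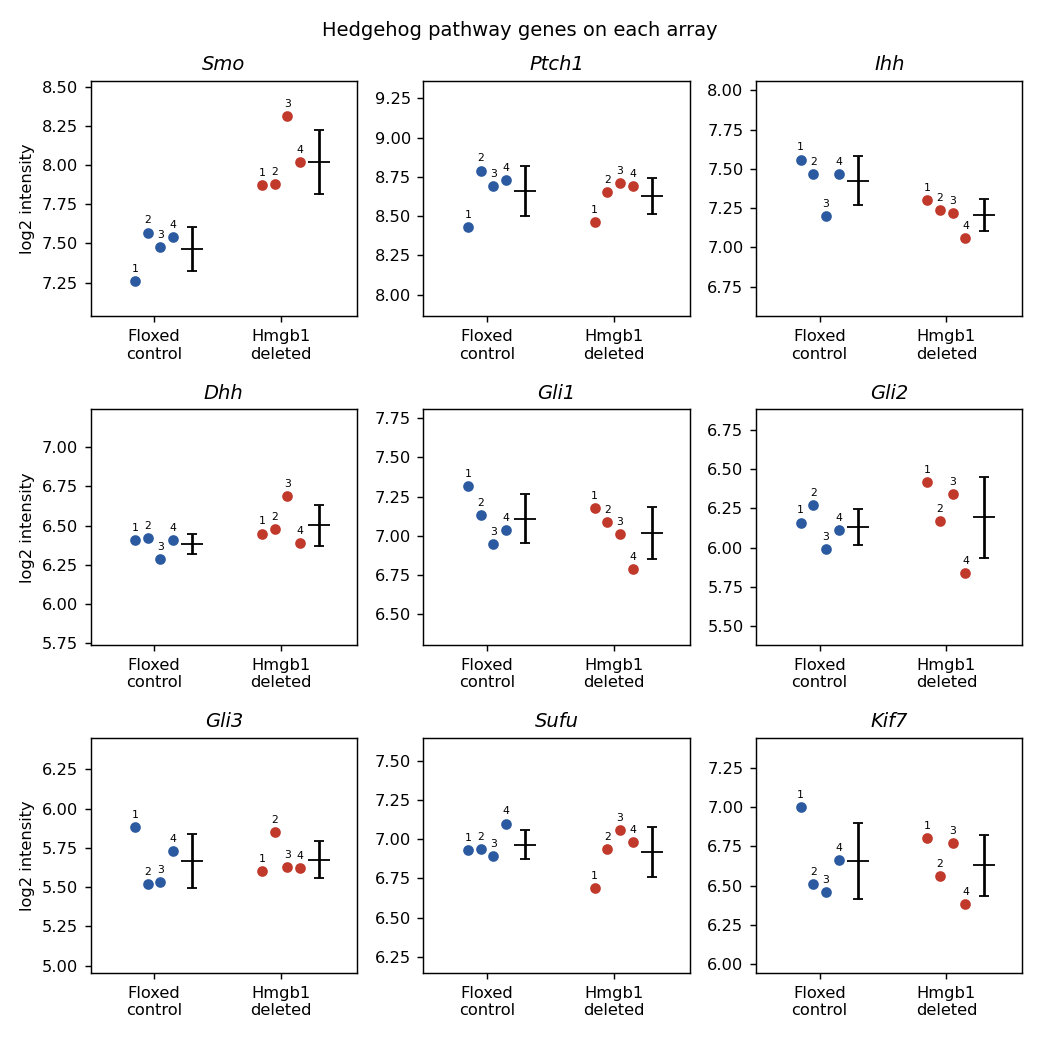
Log2 intensity (vertical axes, each spanning 1.5 log2 units) of the 9 Hedgehog genes on the 4 floxed control (blue) and 4 Hmgb1 deleted (red) arrays, numbered as in the titles, with the mean and SD of each group in black. The groups are apart for Smo and overlap for the other 8 genes.

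Among the ligands, Ihh, the Indian hedgehog of gut and bone, had the lowest difference of the 9 genes. Deleted arrays 1 to 4 had 7.30, 7.24, 7.22 and 7.06, and controls 7.56, 7.47, 7.20 and 7.47. Control 3 lay below 3 of the deleted arrays, so the groups overlapped, although all 4 deleted arrays were under the control median. The difference was −0.22 (SE 0.087, 95% interval −0.41 to −0.029), and it did not pass over all genes (limma, adjusted p = 0.421). It was negative in all 18 other settings, from −0.295 to −0.13. These settings drew on the same arrays, and several left the difference itself at −0.22, so they are not separate checks of its sign.

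Dhh, desert hedgehog, known from testis and nerve sheaths, had the largest positive value after Smo. It read 6.45, 6.48, 6.69 and 6.39 on the deleted and 6.41, 6.42, 6.29 and 6.41 on the control arrays. Deleted 4 lay under 3 controls, and deleted 3, which was also highest for Smo, was highest here. The difference of 0.12 (SE 0.074, 95% interval −0.044 to 0.28) did not pass (limma, adjusted p = 0.758). The 2 ligands thus had values of opposite sign, neither past the threshold.

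Sufu, which holds Gli in the cytoplasm, read 6.69, 6.94, 7.06 and 6.98 on deleted and 6.93, 6.94, 6.89 and 7.10 on control arrays. Both the lowest value, on deleted 1, and the others gave overlapping groups and a difference of −0.0475 (95% interval −0.24 to 0.14), which turned to 0.028 without deleted 1. Kif7, the kinesin of the cilium tip, read 6.80, 6.56, 6.77 and 6.38 on deleted and 7.0, 6.51, 6.46 and 6.66 on control arrays. Control 1 was highest and deleted 4 lowest, with a difference of −0.03 (95% interval −0.31 to 0.25). It became 0.033 with array weights, 0.084 without control 1, 0.053 without deleted 4 and 0.17 without both. The dimmer second probe set of Kif7 had a difference of 0.02.

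Seen over the 9 genes, 4 had positive and 5 negative differences, with a median of −0.03 against 0 for all genes tested. The groups did not overlap for 1 gene, Smo, where 5.57% of all genes had groups apart (3.28% with the deleted arrays higher, 2.3% with them lower). Without Smo, 0 of 8 passed (limma; 1 of 8, Ihh, at an unadjusted p under 0.05, where 9.46% of all genes were), with adjusted p from 0.421 upward. The 95% intervals of all 8 lay within 1.5-fold, as did those of 19371 of the 19938 genes tested. The differences of the 8 ran from −0.22 (Ihh) to 0.12 (Dhh).

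The order of the arrays within a group was alike in part for Smo and some of the other members. Deleted 3 was highest in its group for Smo, Ptch1, Dhh and Sufu, but not for Gli1, Gli2, Gli3 or Kif7. Control 1 was lowest of the controls for Smo and Ptch1 and highest of them for Ihh, Gli1, Gli3 and Kif7. With the group means taken out, Pearson r with Smo over the 8 arrays was 0.77 for Ptch1, 0.62 for Sufu and 0.60 for Dhh. It was 0.080 for Gli2, −0.27 for Ihh and for Kif7, −0.50 for Gli1 and −0.53 for Gli3. The gene with the highest such r among all genes tested, Mri1, reached 0.99. These are descriptions of 8 arrays, 1 of which stood apart from the rest.

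Further genes of the pathway were taken from a list of 40, of which 36 were measured. Of these 0 passed over all genes (limma; 3 of 36 at an unadjusted p under 0.05, against 9.46% of all genes), with 14 higher, 22 lower and a median difference of −0.025 against 0 for all genes. All 36 intervals lay within 1.5-fold, as did 19371 of the 19938 intervals over all genes. Of the 36 genes 25 lay above the reference of dimness. Disp1, which releases the lipid-bound ligands from cells, had the smallest p, with 7.33, 7.46, 7.56 and 7.30 on deleted and 7.50, 7.78, 7.57 and 7.66 on control arrays. Deleted 3 lay above control 1, and the difference was −0.215 (95% interval −0.40 to −0.034, limma adjusted p = 0.389). Shh, sonic hedgehog, the best-known ligand, had −0.05 (95% interval −0.23 to 0.13).

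Among the co-receptors and ligand-binding proteins 6 of 7 were measured, 3 higher and 3 lower, and 1 lay above the reference of dimness, Gas1, at 0.12. Hhip, a decoy receptor that is also switched on by Gli, was dim and had −0.19 (limma, adjusted p = 0.520). Of the 10 measured genes at the cilium gate and beside Smo, 3 were higher and 7 lower. Gpr161, a receptor that keeps the pathway off, had −0.14 (limma, adjusted p = 0.650), and Iqce, which anchors Smo partners in the cilium, had 0.11 (limma, adjusted p = 0.654). Of the 13 kinase and degradation genes that process Gli, 6 were higher and 7 lower. Cul3, a ubiquitin ligase scaffold, had −0.185 (limma, adjusted p = 0.413), and its partner Spop, which targets Gli for degradation, had 0.05. Over the 36 genes the groups were apart for 2, Iqce with the deleted arrays higher and the kinase Csnk1d with them lower (−0.09), where 5.57% of all genes had groups apart.

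**Figure D2:**
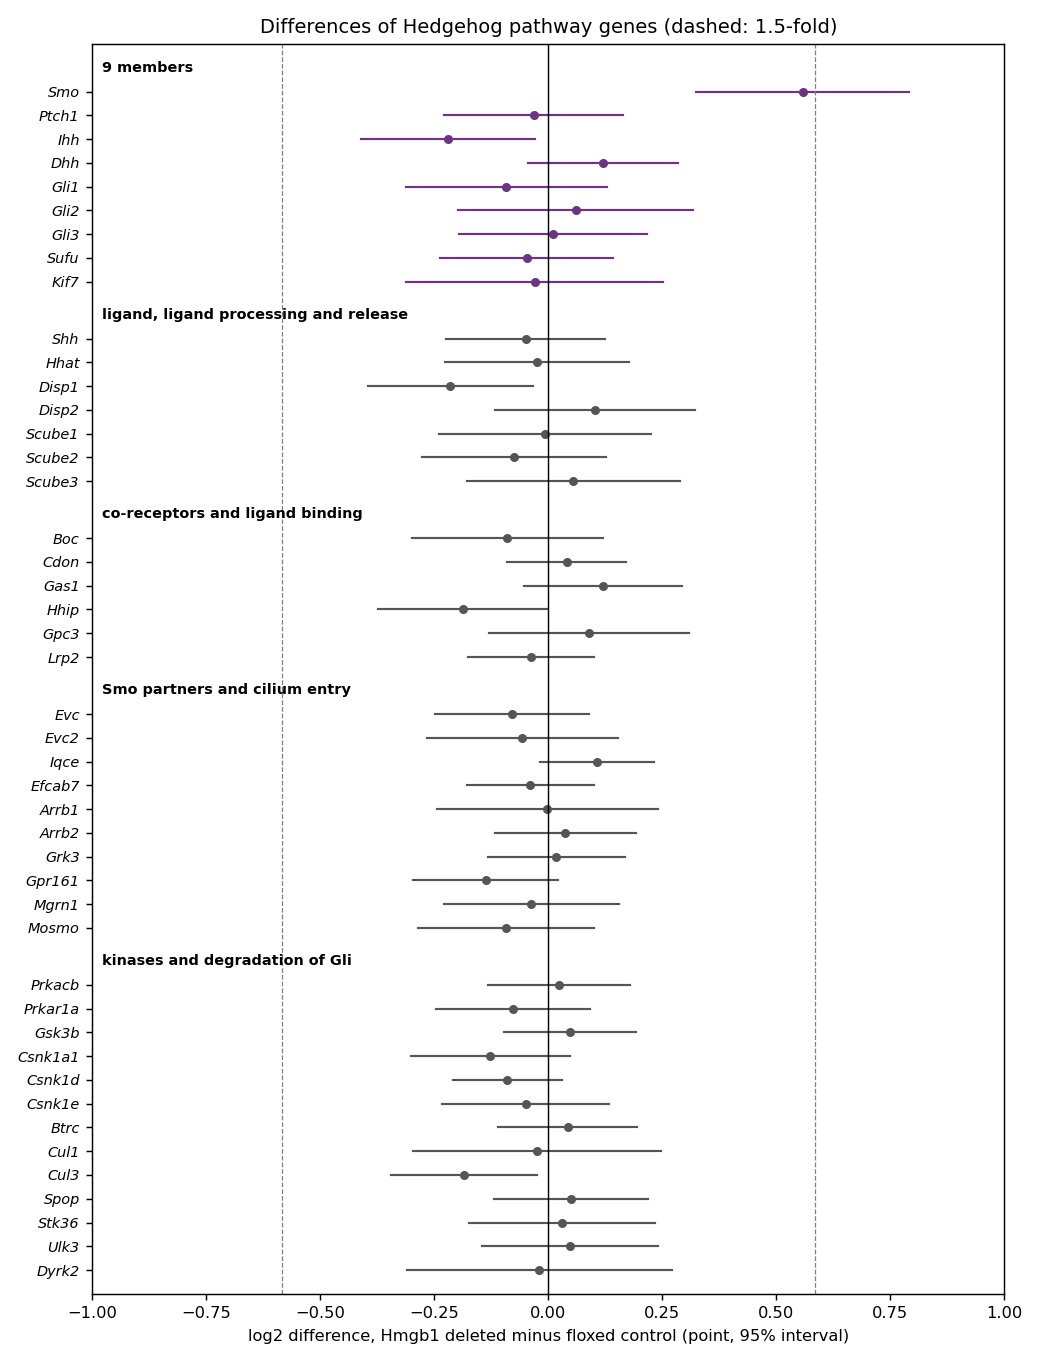
Differences on the log2 scale between 4 deleted and 4 control arrays (points) with 95% intervals (lines) for the 9 members (purple) and the 36 other pathway genes measured (grey), grouped by role, with dashed lines at 1.5-fold. The interval of Smo lies wholly above 0 and reaches past 1.5-fold, and those of the other 44 genes lie within 1.5-fold. Over all 19938 genes tested, 19371 intervals lie within 1.5-fold.

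The primary cilium, on which Smo acts, was read through 31 of 32 listed genes of its assembly and transport. Of these 16 were higher and 15 lower, with a median of 0.0025, and 3 had an unadjusted p under 0.05 (limma), against 9.46% of all genes. Groups were apart for 2 with the deleted arrays lower, Fuz and Ttc21b, and for 1 with them higher, Inpp5e. Over all genes 5.57% had groups apart. Fuz, which guides the assembly of the cilium and its transport trains, was the 1 gene past the threshold and fell. Its log2 intensities were 6.21, 6.27, 6.38 and 6.18 on deleted and 6.49, 6.66, 6.76 and 6.65 on control arrays, so that the groups were apart. The difference was −0.38 or 1.30-fold lower (SE 0.074, limma adjusted p = 0.0497). The 1 of 31 genes past the threshold is 1 gene against a background of 0.692%, and the call was kept in 6 of 18 other settings (with single arrays left out, only without control 1), over all of which the value stayed between −0.43 and −0.34. Cc2d2a and Ttc21b, of the cilium base and its return transport, had −0.23 and −0.16, and Inpp5e, a phosphatase of the cilium membrane, had 0.135. None of these 3 passed (limma, adjusted p of 0.307, 0.442 and 0.570).

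Genes described as targets of Gli factors were then counted. Of 20 measured among 22 listed, 0 passed (limma; 3 of 20 at an unadjusted p under 0.05, where 9.46% of all genes were), 7 were higher, 12 lower and 1 equal, with a median of −0.026 against 0 over all genes. The gene with the smallest p, Sox9, a factor of bile duct cells, read 7.32, 7.31, 7.22 and 7.19 on deleted and 7.41, 7.65, 7.75 and 7.63 on control arrays. The groups were apart, with the deleted arrays lower by a difference of −0.35 (SE 0.078, limma adjusted p = 0.0854), and it passed in 4 of 18 other settings, among them without control 1 (−0.42, limma adjusted p = 0.0102). Bmp4, a secreted growth factor, had −0.235 and Ccnd1, cyclin D1, 0.19, and both overlapped between groups (limma, adjusted p of 0.492 and 0.593).

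**Figure D3:**
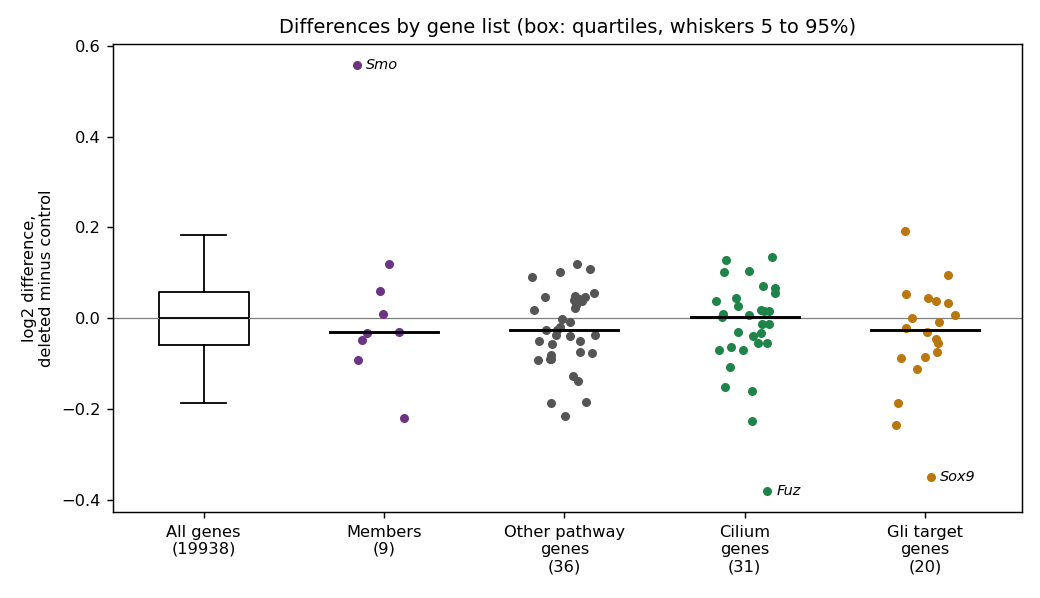
Differences on the log2 scale, deleted minus control, for all 19938 genes (box of quartiles, whiskers from 5 to 95%) and for each gene of 4 lists (points, with the median as a black line). Smo lies at 0.56, the other 8 members between −0.22 and 0.12, and Fuz and Sox9 at −0.38 and −0.35.

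Markers of the cells in which the pathway is known were read beside these values; 9.46% of all genes had an unadjusted p under 0.05, for the counts that follow. Stellate cell markers (22 of 22 measured, 18 above the reference of dimness) had 7 genes higher and 15 lower, 0 past the threshold (limma; 2 at an unadjusted p under 0.05) and array means that overlapped, from −0.029 to 0.046 on deleted and −0.018 to 0.052 on control arrays. Bile duct markers (11 of 13 measured, Sox9 among them) had 5 higher and 6 lower, with 0 past the threshold (limma; 1 at an unadjusted p under 0.05, Sox9), and Krt19 had 0.0025. Their array means were −0.10 to 0.023 on deleted and 0.0016 to 0.037 on control arrays, lowest on deleted 4. Of 15 sinusoidal endothelial markers 14 had negative differences, as did 9928 of the 19938 genes tested. Past the threshold was 1 of the 15, Clec4g, a lectin of these cells, against 0.692% of all genes (limma). At an unadjusted p under 0.05 were 7 of 15, and groups were apart for 3, where 5.57% of all genes had groups apart. The array means of these markers, −0.19 to −0.035 on deleted arrays, lay below those of controls, −0.0098 to 0.19. Hepatocyte markers were lower for 18 of 19, Kupffer cell markers higher for 9 of 13 and lymphocyte markers higher for 7 of 14. In each, 0 were past the threshold (limma), with 4, 1 and 0 at an unadjusted p under 0.05, and array means overlapped. The hepatocyte mean on deleted 4 was −0.31. It was −0.017 to 0.068 on the other deleted arrays and 0.049 to 0.081 on controls. The part of these cell types in the values of the Hedgehog genes was not tested.

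On chromosome 6 the 3 genes tested before Smo were Irf5, Tnpo3 and Tspan33, and the 3 after it were Ahcyl2, Strip2 and Smkr-ps. Of these 6 genes 0 passed (limma), and 2 had an unadjusted p under 0.05, where 9.46% of all genes did. Irf5, an interferon regulatory factor, read 7.81 to 8.00 on deleted and 7.32 to 7.79 on control arrays, with control 1 lowest. Its groups were apart by a narrow gap, where 5.57% of all genes had groups apart. Its difference was 0.26 (limma, adjusted p = 0.436). Ahcyl2 had 0.37 (limma, adjusted p = 0.513), with control 1 lowest at 8.58. The other 4 ran from −0.08 to 0.17.

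The 5 genes most like Smo by Pearson r over the 8 arrays were Blcap (0.99), Parp12 (0.98), the mitochondrial nucleotide kinase Cmpk2 (0.98), the mitochondrial elongation factor Tsfm (0.98) and the Rab11 effector Rab11fip1 (0.98). Cmpk2 and Parp12 are known as interferon-induced genes. Their likeness includes the group difference of Smo, so their own differences follow in part from the choice: 0.745 for Cmpk2, 0.41 for Parp12, 0.335 for Rab11fip1, 0.205 for Tsfm and 0.14 for Blcap. With the group means taken out, the 5 most alike were Mri1, Letmd1, Gna11, Heatr5b and Mvp, at r from 0.97 to 0.99. These genes were picked as the most alike out of 19938 over only 8 arrays, so their values are a description, with no test.

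**Figure D4:**
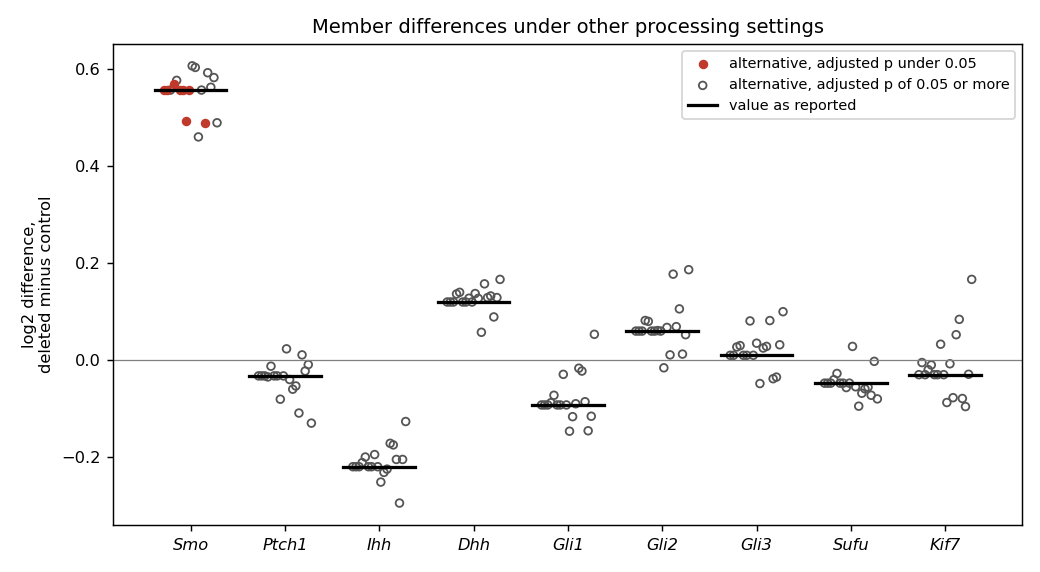
Difference on the log2 scale for each of the 9 genes as reported (black line) and under the other processing settings (points, up to 18 a gene), filled where the gene passed the threshold. Smo stays between 0.46 and 0.61 and passes in 8 of 18 settings, and the other 8 genes pass in none of those that gave them a value.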

How the data were processed

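Liver RNA (150 ng) was amplified and labelled with biotin for Affymetrix arrays, per the labels' protocols. The authors deposited log2 intensities, made with RMA (background correction, normalization between arrays and summary of probes to probe sets) per the submitters' processing notes. The sources used here name neither its version nor a build. GEO's array annotation gave 1 symbol to 21789 of 35556 probe sets, several to 1621 and none to 12146; only the first were used. The brightest probe set over the 8 arrays stood for each of 19938 genes. The 4 deleted and 4 control arrays were compared by limma's moderated test (version 3.58.1, R 4.3.3, 2-sided, no covariate), adjusted by Benjamini-Hochberg over all genes with a threshold of 0.05. Gene lists were given as counts and medians, with no set test.

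The members and lists were chosen with earlier results of these data known. Named genes were the members, Hmgb1, Alb, cell markers, genes of the pathway, cilium and Gli target lists past the threshold, the 4 of smallest p in each of these 3 lists, the neighbours of Smo and the genes most like it. Shh, Gas1, Iqce, Spop, Csnk1d, Clec4g and Tfcp2l1 were added after their values were seen. Of 196 distinct list genes 187 were measured. Genes were matched to RefSeq on GRCm38.p6. On simulated arrays the same fit recovered 77.6% of 67 genes changed 1.5-fold, 98.5% of 67 changed 2-fold and 98.5% of 66 changed 3-fold. Of its 192 calls 9 were false. The simulated noise was drawn independently for each gene and array, so no array stood apart over many genes as control 1 did. These rates may therefore not hold for the real arrays. The 18 alternatives covered the choice of probe sets, scaling, variance model, array weights, a replicate block and arrays left out. The number of arrays limits the precision. Figures were drawn with matplotlib 3.10.9 in Python 3.11.15.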

Additional observations from a re-analysis of the deposited data

Results flagged for a closer look

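Each group of 4 values was searched for an array standing far off, meaning that most of the whole range separated it from the next array. The search covered 86 groups from the 43 genes named by rule and found 11 values. By chance about 1 group in 20 is picked up, here 4.3 if the groups were independent. The genes share the same arrays, and some were picked for their likeness to Smo over them. The 4.3 is therefore only a rough guide. Of the 11, 2 concerned Hedgehog genes. Dhh had a log2 intensity of 6.29 on control 3 against 6.41 to 6.42 on the other controls, and Gli3 had 5.85 on deleted 2 against 5.60 to 5.63. No value of Smo was among them.

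The other 9 fell mostly on floxed control 1. It had 7.32 for Irf5 against 7.75 to 7.79 on the other controls, 9.04 for Tnpo3 against 9.30 to 9.32, and 7.44 for Tspan33 against 8.09, all 3 of them neighbours of Smo. It also had 6.91 for Bmp4 against 7.22 to 7.27, 9.34 for Parp12 against 9.64 to 9.68, 9.16 for Gna11 against 9.41 to 9.43 and 7.82 for Lrat against 8.76 to 8.87. Alb was 13.26 on deleted 4 against 13.93 to 14.03, and Tsfm was 8.25 on deleted 3 against 8.05 to 8.08.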

How the results depend on the processing

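Smo stayed higher in all 18 alternatives, which adds little. With its groups apart, leaving arrays out could not turn the sign. The filter on dim genes, the probe set choices, the variance models and the replicate block left the difference at 0.56. The adjusted p of Smo (limma) was 0.0457 as reported, and ran from 0.0103 with array weights to 0.147 without deleted 4. It was 0.118 when all probe sets were tested and 0.0856 with arrays centred on their medians. Smo was the reason for choosing the pathway, so these p-values are a description and no test of it. No member moved by more than the spread between replicates. Of the other members Ihh and Dhh kept their sign in every alternative that gave a value, and Ptch1, Gli1, Gli2, Gli3, Sufu and Kif7 each changed it in 1 to 4. The count of members past the threshold was 0 with all probe sets tested, with centred arrays and with control 1 and deleted 4 left out together (added after seeing the data), and from 0 to 1 with single arrays left out.

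Genes past the threshold numbered 138 in all, 57 with all probe sets tested, 264 after quantile normalization again, 61 with centred arrays, 526 with array weights, 223 without control 1 and deleted 4, and from 37 (without deleted 4) to 321 (without control 1) with 1 array left out. With the replicate number as a block there were 325, and Smo kept its call. Deviations of same-numbered arrays correlated at 0.447, 0.065, −0.081 and 0.42, and 4 of 8 arrays correlated best with their own number. These values do not settle whether the numbers pair the samples, and the main fit treated the arrays as unpaired. Cilium genes past the threshold (Fuz alone) fell to 0 with all probe sets tested, quantile normalization again, centred arrays, an intensity trend or a robust prior variance, and ran from 0 to 1 with 1 array left out. Gli target genes past it rose to 1, Sox9, after quantile normalization again, with array weights and without control 1 and deleted 4, and ran from 0 to 1 with 1 array left out. Other pathway genes stayed at 0 throughout. Signal near or under the reference of dimness limits what Gli2, Gli3 and most co-receptors can show.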

Other observations

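Among the 48 genes tested nearest to the other 8 Hedgehog genes, 1 was past the threshold, against 0.692% of all genes. Tfcp2l1, a transcription factor next to Gli2 on chromosome 1, rose from a log2 intensity of 7.47 ± 0.074 (SD, n = 4) in controls to 7.99 ± 0.11 (SD, n = 4) in deleted livers, a difference of 0.52 (SE 0.071, limma adjusted p = 0.0114) with the groups apart. It was singled out after its values were seen. Gli2 itself had 0.06.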
